A study of Anser cygnoides with 12 samples.

Results

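SLC6A4 and TMIGD1 are neighbouring genes on 1 goose scaffold, and they were followed here through the jejunum of 12 geese and 3 diets. They are 2 of the 18007 genes in the deposited table, both were among the 14863 genes that had enough counts to be tested, and they were selected on measured values, the LWG and Con levels from which the study had named them and their joint variation over the geese, and on their position side by side. Their difference between LWG and Con geese and their joint variation are therefore given as descriptions, without a test. SLC6A4 encodes the serotonin transporter (gene number 106045787), and TMIGD1 encodes a transmembrane protein with immunoglobulin domains (gene number 106045789).

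Female Sichuan white geese, 250 days old at the start, were fed for 12 weeks. The Con geese received a corn and soybean meal diet, the LWG geese a diet with 21.8% wheat germ and the HWG geese a diet with 43.6% wheat germ, and the study describes the nutrient levels of the diets as alike. Whole jejunum tissue of 4 geese per group was sequenced, so in every result a change in the number of cells of a type and a change in the RNA per cell cannot be told apart. Groups are named as the sample labels name them, and all directions rest on those labels. The written account of the study gives the opposite direction between LWG and Con for both genes. Whether a label or the order of that contrast is inverted was not settled here, and the authors' own fold changes were not used. Every comparison below that involves LWG or Con geese therefore holds only as far as the labels do.

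Serotonin is made in the gut mostly by enteroendocrine cells and acts on receptors of enterocytes, neurons, muscle and immune cells. Its signal ends when the serotonin transporter, a sodium-dependent carrier of the SLC6 family, takes it up into enterocytes, where it is broken down; neurons and, in birds, thrombocytes also take up serotonin. In mammals, TMIGD1 is an adhesion protein of intestinal and renal epithelial cells that is found at the brush border, the layer of microvilli that carries digestive enzymes and nutrient transporters, and binds scaffold proteins of the NHERF family. Both proteins are thus known from the surface of the same absorptive cells.

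In the deposited table, both genes are on scaffold NW_013185859.1, which carries 69 of the listed genes. The table uses scaffold names of RefSeq, while the methods name another accession, so the build of these positions is not settled and they are given as deposited. TMIGD1 runs on the plus strand from 1246253 to 1251203 (4951 bp, 1 transcript), and SLC6A4 runs on the same strand from 1277501 to 1301328 (23828 bp, 2 transcripts). Their start positions are 31248 bp apart, and 26297 bp lie between the end of TMIGD1 and the start of SLC6A4. That interval is mostly taken up by BLMH, the cysteine protease bleomycin hydrolase, from 1251120 to 1271723 on the plus strand. BLMH overlaps the last 84 bp of TMIGD1 on the same strand, so reads from those bases cannot be assigned by strand, and it ends 5777 bp before SLC6A4. On the outer sides, CPD, a carboxypeptidase, lies 3018 bp before TMIGD1 in coordinates, and NSRP1, a splicing regulator, lies 1339 bp after SLC6A4. Both are on the minus strand, so CPD begins and NSRP1 ends on the side that faces the pair. In the RefSeq annotation of a later goose assembly (of the Taihu goose), which was used for gene order only, NSRP1, SLC6A4, BLMH and TMIGD1 follow each other in the same way, and a long non-coding RNA, LOC125184009, stands between TMIGD1 and CPD. The table also lists a serotonin transporter-like fragment, LOC106031388, with a count above 0 in 2 libraries and a highest count of 7, so few SLC6A4 counts could have been split off to it.

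The summed counts per library were 40159187 to 45686956 and overlapped between the groups. Counts of 4 were more frequent in the table (3148) than counts of 3 (1250) or 5 (1052), so the number of read pairs behind a count is unknown, and errors are those between geese. Over all 14863 genes, 0 passed an adjusted p of 0.05 in the quasi-likelihood F-test of edgeR for LWG or for HWG against Con. At an unadjusted p under 0.05 there were 985 and 619 genes, and DESeq2 called 37 and 6 at an adjusted p of 0.05.

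SLC6A4 was highest in the jejunum of the geese labelled LWG. In CPM, the count after TMM scaling to a common library size, it was at 23.8, 16.7, 34.4 and 31.7 in Con replicates 1 to 4. In the LWG replicates in the same order, it was at 51.6, 51.9, 83.6 and 89.3 CPM. In the HWG replicates, it was at 8.74, 17.6, 39.5 and 22.9 CPM. Every LWG goose was thus above all 8 other geese, whereas the Con and HWG geese were mixed in order. Within the LWG group, replicates 3 and 4 stood above replicates 1 and 2.

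The mean level of SLC6A4 was 26.7 ± 8.02 CPM in Con, 69.1 ± 20.2 CPM in LWG and 22.2 ± 12.9 CPM in HWG geese (SD, n = 4 each). The ratio of means was 2.59 for LWG over Con and 3.12 for LWG over HWG. The fitted log2 fold change of LWG over Con was 1.37 (standard error 0.387), and that of HWG over LWG was -1.64 (standard error 0.390), both as descriptions. The gap between the lowest LWG goose (51.6 CPM) and the highest other goose (HWG replicate 3, 39.5 CPM) was smaller than the SD within the LWG group.

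TMIGD1 showed the same order of groups at a far higher level. It was at 210, 225, 655 and 308 CPM in Con replicates 1 to 4. In the LWG replicates it was at 1049, 1187, 886 and 961 CPM. In the HWG replicates it was at 147, 133, 427 and 219 CPM. Again, every LWG goose was above the other 8, and Con replicate 3 and HWG replicate 3, the highest of their groups for both genes, came next. Unlike for SLC6A4, LWG replicates 1 and 2 were above LWG replicates 3 and 4.

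The mean level of TMIGD1 was 350 ± 208 CPM in Con, 1020 ± 129 CPM in LWG and 232 ± 135 CPM in HWG geese (SD, n = 4 each). Its ratio of means was 2.92 for LWG over Con and 4.40 for LWG over HWG. The fitted log2 fold change of LWG over Con was 1.55 (standard error 0.415), and it was 2.02 without Con replicate 3. That of HWG over LWG was -2.14 (standard error 0.423). Relative to the mean, TMIGD1 varied little among LWG geese, with a coefficient of variation of 12.7%, against 59.6% among Con and 58.4% among HWG geese. For SLC6A4 the coefficients were 29.2%, 30.1% and 58.3% in the same order. The groups accounted for 76.2% of the variance of TMIGD1 and 65.8% of that of SLC6A4 on the log2 CPM scale.

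Levels at which all LWG geese were above all Con and HWG geese were found for 44 of the 14863 tested genes (0.296%). As the LWG and Con values were used to choose SLC6A4 and TMIGD1, nothing is read from their being among these 44.

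**Figure D1:**
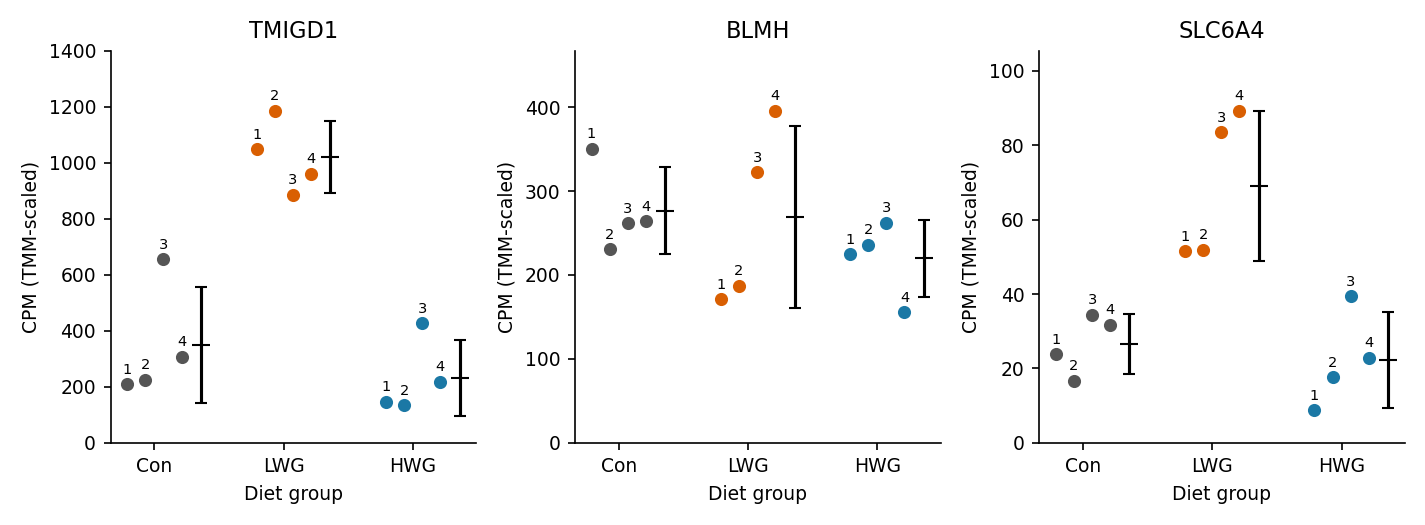
Levels of TMIGD1, of BLMH, which lies between the pair, and of SLC6A4 in each goose (points with replicate number, CPM after TMM scaling, axes from 0), with the mean and SD of each group of 4 beside them. For TMIGD1 and SLC6A4 every LWG goose is above all 8 others, with lowest LWG values of 886 and 51.6 CPM, whereas the BLMH values of the 3 groups overlap.

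The study had not named the genes from the comparison of HWG with Con geese, but this comparison shares the Con geese with the one it used. The HWG values also entered the joint variation by which the pair was chosen. The p-values below are therefore not free of that choice and are given as descriptions. The log2 fold change of SLC6A4 was -0.27 with a standard error of 0.381 (edgeR, unadjusted p = 0.496, adjusted p = 0.945). That of TMIGD1 was -0.59 with a standard error of 0.408 (edgeR, unadjusted p = 0.169, adjusted p = 0.939). Of all genes, 2.13% had a higher and 2.04% a lower level in HWG geese with an unadjusted p below 0.05, and neither gene of the pair was among them. The standard errors leave room for a sizeable difference in either gene. For SLC6A4, the sign turned to a value of 0.021 without HWG replicate 1, and TMIGD1 lay at -0.09 without Con replicate 3 and at -1.03 without HWG replicate 3. By the labels, no difference from Con was detected at the higher dose of wheat germ, and both genes were highest at the lower dose. With the LWG and Con labels exchanged, the highest group would be Con. HWG over Con would then be what is given here as HWG over LWG, -1.64 for SLC6A4 and -2.14 for TMIGD1.

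To compare the genes with each other, FPKM values were used, which take the length of the transcript into account. SLC6A4 averaged 3.73 ± 1.02 FPKM in Con, 8.93 ± 1.89 FPKM in LWG and 3.18 ± 1.68 FPKM in HWG geese. TMIGD1 averaged 116 ± 55.9 FPKM in Con, 328 ± 65.1 FPKM in LWG and 80.1 ± 41.3 FPKM in HWG geese. With a mean of 174 FPKM over the 12 geese, TMIGD1 held place 302 among the 18007 genes, and SLC6A4 held place 8385 with 5.28 FPKM.

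The FPKM ratio of TMIGD1 to SLC6A4 ranged from 18.4 to 55.4 over the geese. It was 21.4, 32.6, 46.1 and 23.6 in Con replicates 1 to 4 (30.9 ± 11.2, SD). In LWG replicates 1 to 4 it was 49.2, 55.4, 25.7 and 26.1 (39.1 ± 15.5). In HWG replicates 1 to 4 it was 40.9, 18.4, 26.2 and 23.2 (27.2 ± 9.71). The ratios of the 3 groups overlapped, and within the LWG group replicates 1 and 2 had ratios well above those of replicates 3 and 4.

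Over the 12 geese, the log2 CPM values of the genes varied together, with a Pearson r of 0.894 and a Spearman rho of 0.874. The points share their libraries and the group differences by which the pair was chosen, so these values carry no p. Without the 2 geese farthest from the median of SLC6A4 (HWG replicate 1 and LWG replicate 4), r was 0.896. Among all 14862 other tested genes, TMIGD1 was the 20th most like SLC6A4, and SLC6A4 the 33rd most like TMIGD1. The median r with all genes was -0.046 for SLC6A4 and -0.026 for TMIGD1.

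Part of this likeness lay between the groups and part within them when the groups were pooled. The LWG group alone did not share it. There, SLC6A4 was higher in replicates 3 and 4 (83.6 and 89.3 CPM) than in replicates 1 and 2 (51.6 and 51.9 CPM). TMIGD1 was lower in replicates 3 and 4 (886 and 961 CPM) than in replicates 1 and 2 (1049 and 1187 CPM). After the group means were removed, r was 0.653 and rho 0.510, and r was 0.422 without HWG replicate 3. With the replicate number removed as a block as well, r was 0.260. With the group means alone removed, the pair stood out less than over all geese. Of all genes, 5.91% were at least as like SLC6A4 as TMIGD1 was, and 8.22% were at least as like TMIGD1 as SLC6A4 was.

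**Figure D2:**
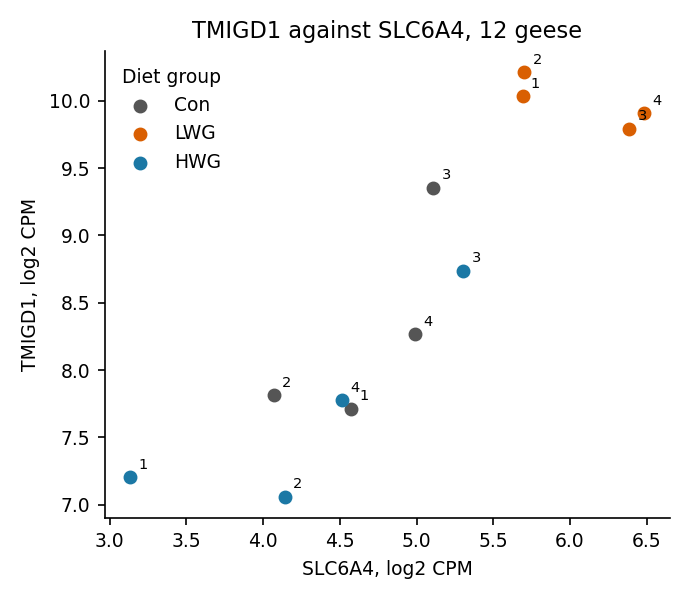
Log2 CPM of TMIGD1 against log2 CPM of SLC6A4 in the 12 geese, coloured by diet group and numbered by replicate. The 4 LWG geese lie at the upper right, and Con replicate 3 and HWG replicate 3 are the nearest to them (Pearson r = 0.894 over all geese).

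Neighbouring genes in general were only weakly alike in these libraries. Over 14237 pairs of tested genes that follow each other on a scaffold, the median r was 0.123, and 113 pairs (0.794%) reached the value of SLC6A4 and TMIGD1. Since BLMH stands between them, pairs with 1 tested gene between them were also examined, a choice made after the data were seen. Of 13777 such pairs, 41 (0.298%) reached it, with a median r of 0.0529. On deviations from the group means, 9.89% of the adjacent pairs and 6.56% of the pairs with 1 gene between them reached the value of 0.653. As SLC6A4 and TMIGD1 were chosen in part for their joint variation, nothing is read from their place among these pairs.

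BLMH did not show the order of groups of its neighbours. It was at 350, 231, 262 and 264 CPM in Con replicates 1 to 4, at 171, 187, 322 and 396 CPM in LWG replicates 1 to 4, and at 225, 236, 262 and 155 CPM in HWG replicates 1 to 4. The groups overlapped, and the LWG group held the highest value as well as 2 of the 3 lowest. Its log2 fold change was -0.04 for LWG over Con (standard error 0.272, adjusted p = 0.996 from edgeR) and -0.33 for HWG over Con (standard error 0.272, adjusted p = 0.939 from edgeR). Its r was 0.326 with SLC6A4 and 0.088 with TMIGD1.

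CPD was at 158 to 278 CPM in Con, 220 to 328 CPM in LWG and 202 to 302 CPM in HWG geese, with an r of 0.441 with SLC6A4 and 0.534 with TMIGD1. NSRP1 was at 35.8 to 59.4 CPM in Con, 37.1 to 42.1 CPM in LWG and 33.6 to 46.6 CPM in HWG geese, with an r of 0.008 and -0.215. Neither had groups that stood apart.

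Within 500 kb on either side of the pair the table lists 31 other genes, of which 27 were tested. The LOC106045800, BHLHA9, LOC106045820 and CRYBA1 genes did not pass the filter, with highest counts of 17, 3, 13 and 12. At an unadjusted p under 0.05, 0 of the 27 differed between LWG and Con (2.83% of all genes had a higher and 3.8% a lower level), with log2 fold changes from -1.08 (ADORA2B) to 0.94 (LOC106045831). Between HWG and Con, 1 of the 27 did (2.13% of all genes were higher and 2.04% lower). It was LOC106045776, at 0.46 (standard error 0.206, adjusted p = 0.939 from edgeR). In 0 of the 27 were all LWG geese above all others.

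The r of these neighbours with SLC6A4 ran from -0.832 to 0.782, with a median of 0.178, and that with TMIGD1 from -0.632 to 0.742, with a median of 0.181. The gene most like both was TAX1BP3, a PDZ domain protein at the far end of the window, with r of 0.782 and 0.742 and levels of 168, 266 and 139 CPM in the Con, LWG and HWG groups. The least like was TIMM22, of the mitochondrial import machinery, with r of -0.832 and -0.632 and levels of 28.3, 21.6 and 33.9 CPM. Other genes with an r over 0.5 with both were CENPV, NCOR1, SPECC1 and ABR, and none of these 5 neighbours with an r over 0.5 lay next to the pair.

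**Figure D3:**
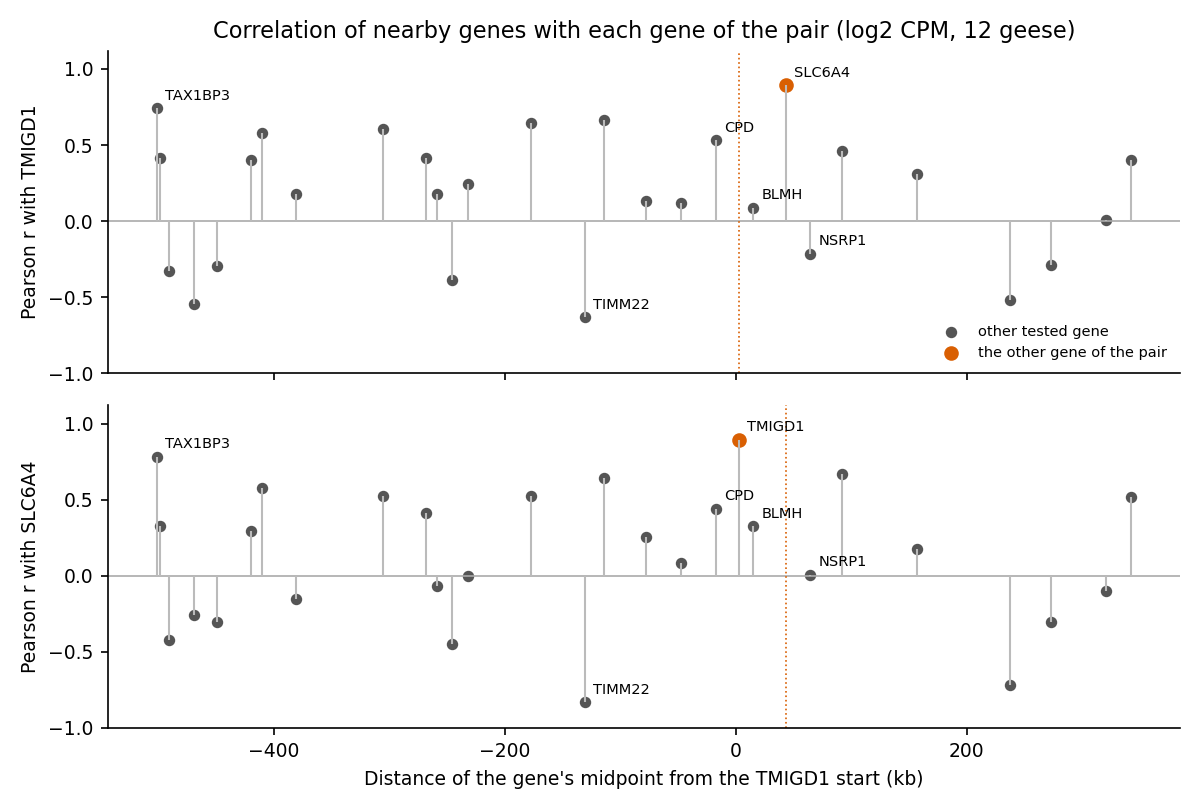
Pearson r over the 12 geese of each tested gene within 500 kb with TMIGD1 (upper panel) and with SLC6A4 (lower panel), against the distance of the gene's midpoint from the TMIGD1 start. The dotted line marks the gene that the panel is about. The other gene of the pair reaches 0.894, BLMH between them 0.088 and 0.326, and the neighbours scatter from -0.832 to 0.782.

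The levels of brush border genes varied with those of the pair. All 11 genes of a list of brush border adhesion and structure, such as CDHR2 (LOC106049502), CDHR5, USH1C, MYO7B and villin (LOC106039322), had an r above 0 with SLC6A4 and with TMIGD1, with medians of 0.752 and 0.792. Over all tested genes, the median r was -0.046 with SLC6A4 and -0.026 with TMIGD1. The share of all genes with an r above 0 is not given, so counts of genes by the sign of r, here and below, are descriptions. Between LWG and Con, 0 of the 11 passed an unadjusted p of 0.05 in either direction (2.83% of all genes were higher and 3.8% lower). Their median log2 fold change was 0.51, against 0.0075 over all genes. Between HWG and Con, 0 passed as well (2.13% of all genes were higher and 2.04% lower), with a median of -0.32, against -0.0099 over all genes.

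The mean log2 CPM of these 11 genes served as a brush border score. It was 7.50, 6.86, 8.20 and 6.83 in Con replicates 1 to 4, 7.56, 7.74, 8.17 and 8.08 in LWG replicates 1 to 4, and 6.71, 6.48, 7.84 and 6.74 in HWG replicates 1 to 4. Con replicate 3 had the highest score of all geese, and HWG replicate 3 was also above 2 of the LWG geese, so the groups overlapped. The score had an r of 0.803 with SLC6A4 and 0.828 with TMIGD1 over the 12 geese, and of 0.661 and 0.748 after the group means were removed.

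With the score as a covariate in the fit, the log2 fold change of LWG over Con was 0.94 (standard error 0.347) for SLC6A4, against 1.37 without it, and 1.20 (standard error 0.295) for TMIGD1, against 1.55. That of HWG over LWG was -1.02 (standard error 0.387) and -1.48 (standard error 0.336), against -1.64 and -2.14. The r of the pair was 0.687 with the score removed from both, and 0.319 when the group means were removed as well. In Con replicate 3, TMIGD1 was at 655 CPM at a score of 8.20, below the 886 CPM of LWG replicate 3 at 8.17, and SLC6A4 was at 34.4 against 83.6 CPM. The LWG and Con values had served to choose the genes, so these values are descriptions. Whether brush border content plays a part in the levels of the pair was not tested.

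**Figure D4:**
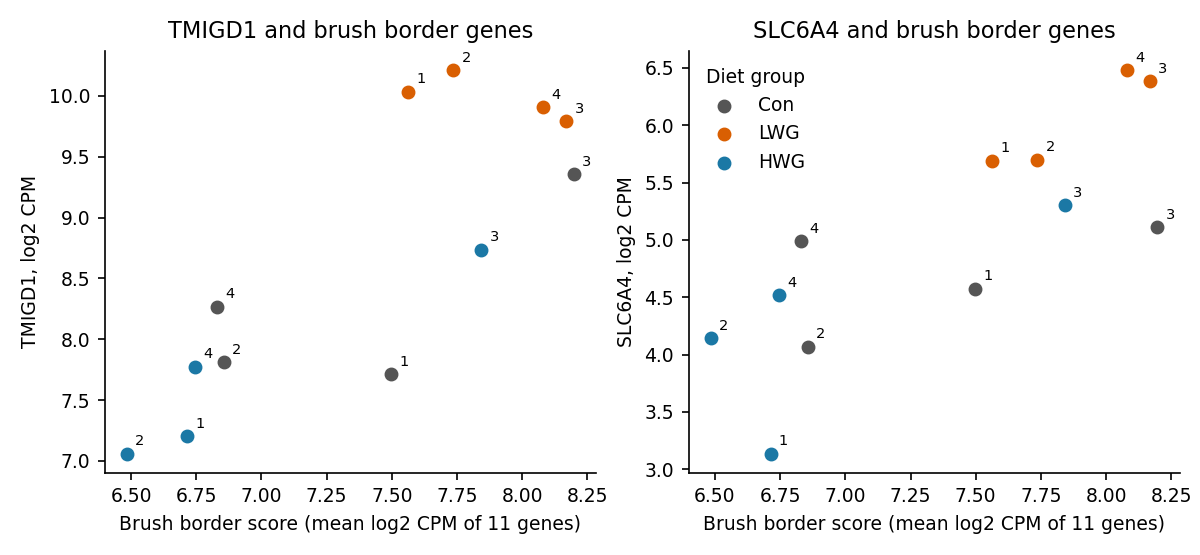
Log2 CPM of TMIGD1 (left) and SLC6A4 (right) against the brush border score, the mean log2 CPM of 11 brush border genes, in the 12 geese, coloured by diet group and numbered by replicate. Both genes were higher in geese with a higher score (r = 0.828 and 0.803), and Con replicate 3 lies below LWG replicate 3 at nearly the same score.

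Genes of digestion and absorption gave similar values. All 17 tested genes of that list had an r above 0 with both, with medians of 0.699 for SLC6A4 and 0.719 for TMIGD1. Closest was ENPEP, the brush border enzyme glutamyl aminopeptidase, with an r of 0.892 with SLC6A4 and 0.913 with TMIGD1. It was at 956, 792, 2743 and 1127 CPM in Con replicates 1 to 4, at 1730, 2576, 2464 and 2347 CPM in LWG replicates 1 to 4, and at 444, 726, 1944 and 668 CPM in HWG replicates 1 to 4. Its groups overlapped, as Con replicate 3 was the highest of all. Between LWG and Con, 2 of the 17 were higher at an unadjusted p under 0.05 (2.83% of all genes) and 0 were lower (3.8% of all genes), namely FABP1, a fatty acid carrier (log2 fold change 2.52), and SLC26A3, a chloride and bicarbonate exchanger (1.06). The median log2 fold change was 0.70 for LWG and -0.40 for HWG over Con, against 0.0075 and -0.0099 over all genes. For HWG, 0 were higher or lower, near the 2.13% and 2.04% of all genes. Over the 17 genes the summed level was 7151 to 38159 CPM in Con, 21568 to 39873 CPM in LWG and 5425 to 33786 CPM in HWG geese.

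Among 15 enterocyte transcription factors, 11 had an r above 0 with SLC6A4 and 13 with TMIGD1. Their median r was 0.359 and 0.478, against -0.046 and -0.026 over all tested genes. HNF4A, which drives many enterocyte genes, had an r of 0.777 and 0.820, KLF4 of 0.698 and 0.751 and CREB3L3 of 0.745 and 0.765. VDR, the vitamin D receptor, was higher in LWG geese at an unadjusted p under 0.05 (log2 fold change 0.63), and MAF was higher in HWG geese (0.57). No other factor passed in either comparison, and of all genes 2.83% were higher in LWG and 2.13% in HWG geese at that threshold. Of the scaffold proteins that bind TMIGD1 or similar apical proteins, NHERF1 (LOC106034617) had an r of 0.775 with TMIGD1, EZR (ezrin) of 0.672 and PDZK1 of 0.571. In all, 4 of the 6 had an r above 0 with TMIGD1, while SLC9A3R2, also of the NHERF family, had one of -0.468 and MSN (moesin) one of -0.305. None of the 6 in this list was higher or lower at an unadjusted p under 0.05 in LWG or HWG geese. Of all genes, 2.83% were higher and 3.8% lower in LWG geese, and 2.13% and 2.04% in HWG geese.

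Markers of place along the intestine divided the libraries across the groups. GATA4, a transcription factor of the proximal small intestine in mammals, was at 27.5 to 86.6 CPM in 7 geese, in which HOXA10, a factor of more distal gut, was at 0 to 0.166 CPM. In the other 5 geese (Con replicates 2 and 4, LWG replicates 1 and 2 and HWG replicate 4), GATA4 was at 0 to 2.66 CPM and HOXA10 at 5.75 to 35.6 CPM. Each group thus held libraries of both kinds although all are labelled jejunum. FABP6, the bile acid carrier of the distal small intestine, was at 3983 and 4637 CPM in the Con geese with GATA4 and 3315 and 4778 CPM in those with HOXA10, which overlapped. In LWG geese it was at 15429 and 22451 CPM with GATA4, above the 7546 and 7666 CPM with HOXA10. In HWG geese it was at 3226 to 4978 CPM with GATA4, above the 693 CPM of the goose with HOXA10.

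As every LWG goose was above all Con and HWG geese for both genes, LWG had to be highest among the libraries of either kind. The values of each kind are given as a description only. Among the 7 with GATA4, SLC6A4 was at 23.8 and 34.4 CPM in Con, 83.6 and 89.3 CPM in LWG and 8.74 to 39.5 CPM in HWG geese, and TMIGD1 at 210 and 655, 886 and 961, and 133 to 427 CPM. Among the 5 with HOXA10, SLC6A4 was at 16.7 and 31.7 CPM in Con, 51.6 and 51.9 CPM in LWG and 22.9 CPM in the HWG goose, and TMIGD1 at 225 and 308, 1049 and 1187, and 219 CPM. A fit of the 7 alone gave a log2 fold change of LWG over Con of 1.57 (standard error 0.583) for SLC6A4 and 1.10 (standard error 0.658) for TMIGD1. A fit of the 5 alone, with 2 Con, 2 LWG and 1 HWG goose, gave 1.08 and 2.05. The LWG and Con values had served to choose the genes, so these fits are descriptions without a test. The difference between GATA4 and HOXA10 had an r of 0.010 with SLC6A4 and -0.127 with TMIGD1. After the group means were removed it was 0.243 and 0.029. Of a list of 4 distal genes, 2 had an r above 0 with SLC6A4 and 3 with TMIGD1. Their median r was 0.265 and 0.372, against -0.046 and -0.026 over all tested genes. FABP6 had an r of 0.704 and 0.660 and SLC10A2 of 0.588 and 0.773, whereas HOXA9 had one of -0.221 and -0.133. FABP6 was higher in LWG than in Con geese at an unadjusted p under 0.05 (log2 fold change 1.67, adjusted p = 0.652 from edgeR). Every LWG goose was above all others for it. The other distal genes did not pass in either comparison, and 2.83% of all genes were higher in LWG geese. The study had named FABP6 on these same geese, so its count is not independent.

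Within the LWG group the division fell between replicates 1 and 2, with HOXA10, and replicates 3 and 4, with GATA4. These are the geese that differed in the FPKM ratio of TMIGD1 to SLC6A4, at 49.2 and 55.4 against 25.7 and 26.1. In the other groups the ratio was not divided in this way, at 32.6, 23.6 and 23.2 in the geese with HOXA10 and 18.4 to 46.1 in those with GATA4. BLMH was also lower in LWG replicates 1 and 2 (171 and 187 CPM) than in replicates 3 and 4 (322 and 396 CPM). This division was examined after the data were seen, and whether place along the intestine plays a part in these values was not tested.

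Other genes of serotonin handling gave mixed values. Of the 6 tested genes of its synthesis, storage and breakdown, 0 passed an unadjusted p of 0.05 in LWG or HWG geese, with median log2 fold changes of 0.18 and 0.05. Of all genes, 2.83% were higher and 3.8% lower in LWG geese, and 2.13% and 2.04% in HWG geese. DDC, the decarboxylase that forms serotonin, had an r of 0.677 with SLC6A4 and 0.698 with TMIGD1. It was at 25.2, 20.4, 69.7 and 30.0 CPM in Con replicates 1 to 4, at 33.1, 35.2, 70.4 and 40.1 CPM in LWG replicates 1 to 4, and at 26.0, 23.8, 36.2 and 25.0 CPM in HWG replicates 1 to 4, so that replicate 3 was the highest in every group. SLC18A2, which loads monoamines into vesicles, went the other way with an r of -0.638 and -0.765, at 13.1, 10.2 and 15.1 CPM in the Con, LWG and HWG groups. ALDH2, an aldehyde dehydrogenase that acts after monoamine oxidase, likewise had an r of -0.801 and -0.815. TPH1, MAOA and MAOB were not analysed here. A gene that the table describes as tryptophan 5-hydroxylase-like, LOC106042627, of the enzymes that start serotonin synthesis, was added after the table was seen. It was at 96.3 to 129 CPM in Con, 122 to 158 CPM in LWG and 95.3 to 128 CPM in HWG geese, with a log2 fold change of 0.34 for LWG over Con (standard error 0.151, edgeR, unadjusted p = 0.042, adjusted p = 0.727).

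Of 10 tested serotonin receptors, 1 was higher and 2 lower in LWG geese (unadjusted p under 0.05, against 2.83% and 3.8% of all genes) and 0 in HWG geese (2.13% and 2.04% of all genes), none at an adjusted p of 0.05 from edgeR. HTR7, a receptor that raises cAMP, was at 12.6, 12.4, 13.8 and 9.65 CPM in Con replicates 1 to 4. It was at 7.58, 5.56, 7.41 and 7.52 CPM in LWG replicates 1 to 4 and at 17.0, 14.9, 14.8 and 9.01 CPM in HWG replicates 1 to 4. Every LWG goose was below the other 8, which held for 0.511% of all tested genes, the reverse of the order of the pair, with an r of -0.748 with SLC6A4 and -0.759 with TMIGD1. The log2 fold change of HTR7 was -0.78 for LWG over Con (standard error 0.222, adjusted p = 0.652 from edgeR).

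HTR2B, found in mammals on gut muscle and its pacemaker cells, was at 5.68 to 15.4 CPM in Con and 5.50 to 7.21 CPM in LWG geese, with a log2 fold change of -0.73 (standard error 0.302). HTR2C was higher in LWG geese with 1.50 (standard error 0.619), but at only 0.899 to 1.35 CPM in Con and 1.40 to 6.37 CPM in LWG geese. HTR4, the receptor with the highest mean level, was at 21.5, 19.8 and 19.6 CPM in the Con, LWG and HWG groups. Of the other carriers of monoamines, SLC22A3 was at 151, 125 and 134 CPM and SLC29A4, a low-affinity serotonin carrier, at 1.69, 2.35 and 2.70 CPM. Of the 3 tested carriers, 0 were higher or lower in either comparison at an unadjusted p under 0.05. Of all genes, 2.83% were higher and 3.8% lower in LWG geese, and 2.13% and 2.04% in HWG geese.

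The table's own assignment to the KEGG pathway of the serotonergic synapse, chosen after the table was seen, held 49 tested genes other than SLC6A4. At an unadjusted p of 0.05, 0 were higher and 2 lower in LWG geese, with a median log2 fold change of 0.085, a count near the 3.8% of all genes that were lower. The 2 were the potassium channel KCNB2 and the cation channel TRPC1. In HWG geese 1 was higher (KCNS2) and 2 were lower (again KCNB2 and TRPC1), with a median of 0.22. Of all genes, 2.13% were higher and 2.04% lower in HWG geese. Of the 49, 18 had an r above 0 with SLC6A4 and 14 with TMIGD1. Their median r was -0.135 and -0.122, against -0.046 and -0.026 over all tested genes.

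Among 12 other members of the SLC6 family, carriers of amino acids, creatine, taurine and neurotransmitters, SLC6A20, SLC6A8 and SLC6A19 were the most like the pair. SLC6A20, a proline carrier, had an r of 0.918 with TMIGD1 and 0.731 with SLC6A4. It was at 24.2, 16.7, 112 and 20.4 CPM in Con, at 109, 166, 66.9 and 58.7 CPM in LWG and at 18.8, 14.6, 65.5 and 25.8 CPM in HWG replicates 1 to 4, so that Con replicate 3 and HWG replicate 3 were again apart from their groups. SLC6A19, the main carrier of neutral amino acids, had an r of 0.824 with TMIGD1 and 0.665 with SLC6A4. SLC6A8, the creatine carrier (LOC106035428), with an r of 0.804 with TMIGD1 and 0.782 with SLC6A4, was higher in LWG geese at an unadjusted p under 0.05 (log2 fold change 0.68), and SLC6A17 was higher in HWG geese (0.98). The other 10 did not pass in either comparison. At that threshold, 2.83% of all genes were higher in LWG and 2.13% in HWG geese. Another list held 7 genes of proteins known to bind or regulate the serotonin transporter in mammals, such as the syntaxin STX1A, ITGB3, PRKG1 and PPP2CA. Of these 7, 0 were higher or lower in LWG or HWG geese at an unadjusted p under 0.05. Of all genes, 3.8% were lower in LWG and 2.04% in HWG geese, so 0 of 7 is near the share of all genes and does not show that they were unchanged.

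Among markers of enteroendocrine cells, thrombocytes, enteric neurons and smooth muscle, none was higher in the LWG geese at an unadjusted p under 0.05. With 2.83% of all genes higher, this is near the share of all genes and does not show that the markers were unchanged. Of 11 enteroendocrine genes, 0 were higher and 1 was lower in LWG geese at an unadjusted p under 0.05. Of all genes, 2.83% were higher and 3.8% lower at that threshold. The lower gene was FEV, a factor of serotonin-producing cells (log2 fold change -1.20, adjusted p = 0.652 from edgeR). It was at 3.82, 1.66 and 2.41 CPM in the Con, LWG and HWG groups. CHGA, the granule protein chromogranin A, was at 622, 602 and 538 CPM, with an r of -0.02 with SLC6A4 and 0.10 with TMIGD1. The median r over the 11 was -0.184 with SLC6A4 and -0.009 with TMIGD1.

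In thrombocyte genes the median r was -0.490 with SLC6A4 and -0.540 with TMIGD1 over 6 genes, and their summed level was 66.9 to 150 CPM in Con, 84.5 to 98.3 CPM in LWG and 116 to 161 CPM in HWG geese. The defining marker ITGA2B was at a mean of 0.129, 0.153 and 0.218 CPM. In 7 genes of enteric neurons the median r was -0.397 and -0.213, with a summed level of 64.5 to 112 CPM in Con, 71.8 to 110 CPM in LWG and 72.3 to 129 CPM in HWG geese. In 4 genes of smooth muscle it was -0.361 and -0.533, with a summed level of 3087 to 11733 CPM in Con, 4430 to 10645 CPM in LWG and 3759 to 21126 CPM in HWG geese. None of these genes was higher or lower in LWG or HWG geese at an unadjusted p under 0.05. Of all genes, 2.83% were higher and 3.8% lower in LWG geese, and 2.13% and 2.04% in HWG geese. The median log2 fold changes of HWG over Con were 0.38 for thrombocytes, 0.32 for neurons and 0.58 for muscle, against -0.0099 over all genes. Those of LWG over Con were -0.10, 0.13 and -0.09. The absence of calls is near the shares of all genes and does not show that these genes were unchanged. Their part in the levels of the pair was not tested.

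Genes of crypt and dividing cells had negative correlations with the pair. All 6 tested genes had an r below 0 with both, with medians of -0.509 and -0.543. The weakest were MKI67 at -0.255 with SLC6A4 and LGR5 at -0.297 with TMIGD1. At an unadjusted p under 0.05, 4 were lower in LWG geese (MKI67, TOP2A, CENPF and KIF20B, all of dividing cells), with log2 fold changes from -0.95 to -1.57, and 2 of them, CENPF and KIF20B, were also lower in HWG geese, at -0.98 each. Of all genes, 3.8% were lower in LWG and 2.04% in HWG geese at that threshold. The study had named CENPF and KIF20B on these same geese, so their counts are not independent, and its text gives the opposite direction for both, the same doubt as for the pair. MKI67, TOP2A, CENPF and KIF20B had lower means in HWG than in Con geese, as SLC6A4 and TMIGD1 had. LGR5, the stem cell marker, was at 43.1, 40.8 and 59.5 CPM in the Con, LWG and HWG groups. SMOC2, of the same list, was at 6.07, 6.36 and 12.1 CPM. The summed level of the 6 was 529 to 1296 CPM in Con, 316 to 679 CPM in LWG and 525 to 742 CPM in HWG geese.

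Of 4 goblet cell genes, MUC2, the main secreted mucin (LOC106038774), was higher in LWG geese at an unadjusted p under 0.05 (log2 fold change 1.56, standard error 0.581). It was at 60.1 to 233 CPM in Con, 230 to 455 CPM in LWG and 37.5 to 323 CPM in HWG geese, with an r of 0.851 with SLC6A4 and 0.860 with TMIGD1. The other 3 did not pass, and 2.83% of all genes were higher at that threshold. AGR2, also of secretory cells, had an r of 0.305 with SLC6A4 and -0.0025 with TMIGD1, at 909, 926 and 785 CPM. SPDEF had an r of -0.293 and -0.112, and FCGBP one of -0.435 and -0.523. Over the 4 genes the median r was 0.006 with SLC6A4 and -0.057 with TMIGD1.

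The genes most like SLC6A4 over the 12 geese were LOC106042592 (r = 0.943), described as intestinal mucin-like, EXPH5 (0.938), an effector of vesicle transport, PHLPP1 (0.925), a protein phosphatase, AFP (0.922) and C8B (0.921), a complement component. LOC106042592 was at 485 to 841 CPM in Con, 1360 to 1778 CPM in LWG and 280 to 1175 CPM in HWG geese, with every LWG goose above the others, and its r with TMIGD1 was 0.912. AFP was at 0.565, 2.87 and 0.730 CPM and C8B at 1.14, 2.15 and 0.898 CPM in the Con, LWG and HWG groups, so both rest on low values. The study had also named AFP from the same geese, and its text gives the opposite direction for it too. The least like were DPP7 (r = -0.950), a peptidase, at 50.4 CPM in LWG geese against 62.3 CPM in Con and 69.7 CPM in HWG geese, PDGFD (-0.925), a growth factor, and LOC106043379 (-0.909).

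The genes most like TMIGD1 were SLC20A1 (r = 0.929), a phosphate carrier, PAWR (0.925), LOC106034444 (0.924), described as aryl hydrocarbon receptor-like, RFFL (0.923), a ubiquitin ligase, and FZR1 (0.922), an activator of the anaphase-promoting complex. SLC20A1 was at 45.8 ± 12.0 CPM in Con, 79.4 ± 21.9 CPM in LWG and 40.2 ± 17.2 CPM in HWG geese (SD, n = 4 each). The least like were LOC106043379 (-0.937), ARL2BP (-0.922) and ETV1 (-0.921).

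After the group means were removed, the genes most like SLC6A4 included CUL4B (0.948), DLG1 (0.947), ARHGAP5 (0.940) and PAPOLA (0.928), and those most like TMIGD1 were RC3H2 (0.967), EGFR (0.964), NR3C2 (0.964), LOC106032520 (0.962) and CLMN (0.961). NR3C2 is the mineralocorticoid receptor, EGFR the receptor of epidermal growth factor, and DLG1 a scaffold protein of cell junctions. None of these genes was named for both members, but with so few named out of 14863 tested genes nothing is read from that. Of the 50 genes most like each member over the 12 geese, 3 (6% of either list) were shared, and of the 200 most like, 84 (42% of either list) were. These lists were also drawn from all tested genes. As the pair was chosen in part for its joint variation, the shared genes are a description only.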

How the data were processed

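RNA of jejunum from 12 geese was sequenced. The authors filtered the reads with fastp, aligned them with HISAT2 and estimated transcript levels with StringTie, and their versions are not given in the sources used here. The deposited table gives counts in whole numbers and FPKM values for each goose. How the counts were made, and whether strand was used with the dUTP libraries, is not stated. Columns with the authors' own fold changes and p-values were not used. Counts were filtered (filterByExpr), scaled by TMM and fitted in R 4.3.3 with edgeR 4.0.16 (quasi-likelihood F-test, diet as factor, all 12 libraries, Benjamini-Hochberg adjustment), a model tested on simulated data. Correlations used log2 CPM (prior count 2). Alternatives were DESeq2 1.42.0, limma 3.58.1 on log2(FPKM + 0.1), + 1 or + 0.01, DESeq2 size factors, no filter, counts divided by 4, a replicate block, the compared groups alone, covariates and leaving out each goose, and, added after the data were seen, geese split by GATA4 and HOXA10. The genes and lists were chosen with earlier results of these data known. Named were both genes, tested genes within 500 kb, the 5 most and 3 least like each, and of each list the most abundant and those with an unadjusted p under 0.05; others named for their correlation were chosen after their values were seen. A gene that the rule also names is not reported here. Gene numbers were matched to a RefSeq table (15158 of 18007) for names.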

Additional observations from a re-analysis of the deposited data

Results flagged for a closer look

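In 69 groups of 4 geese (23 genes whose values per goose were examined, in 3 diets), 6 values lay far from the rest of their group by Dixon's ratio at its 95% limit, where chance alone gives about 1 in 20. HOXA10 was at 35.6 CPM in HWG replicate 4 and at 0.166 CPM or less in the other HWG geese. SLC6A20 was at 112 CPM in Con replicate 3 and at 24.2 CPM or less in the other Con geese. CDHR2 (LOC106049502) was at 417 CPM in HWG replicate 3, against 121 to 150 CPM in the others, and at 714 CPM in LWG replicate 3, against 393 to 420 CPM. SLC20A1 was at 65.9 CPM in HWG replicate 3, against 29.7 to 33.3 CPM in the others. HTR7 was at 5.56 CPM in LWG replicate 2, the lowest of its group, against 7.41 to 7.58 CPM. SLC6A4 and TMIGD1 had no such value in any group.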

How the results depend on the processing

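Depth is known only as summed counts, and with 4 geese per group the spread between geese limits every value. SLC6A4 and TMIGD1 were higher in LWG than in Con and HWG geese under all 25 alternatives run for each. The alternatives reuse the values by which the genes were chosen, so this describes the processing and gives no independent support. Leaving out 1 goose, the log2 fold change of LWG over Con was 1.20 to 1.50 for SLC6A4 and 1.37 to 2.02 for TMIGD1. That of HWG over Con was -0.67 to 0.021 for SLC6A4 (0.021 without HWG replicate 1) and -1.03 to -0.09 for TMIGD1, and that of HWG over LWG was -2.04 to -1.35 and -2.58 to -1.95. With the brush border score as a covariate, TMIGD1 was at -1.48 for HWG over LWG. Leaving out 1 goose, r of the pair was 0.885 to 0.906, and 0.422 to 0.708 within groups. Spearman's rho was 0.874, and with the brush border score removed r was 0.687, or 0.319 within groups. The share of neighbouring pairs with an r as high was 0.794%, against 1.24% on log2(FPKM + 0.1), 9.89% on deviations from the group means, 0.298% for pairs with 1 gene between them and 6.56% for these on deviations.

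DESeq2 called 37 genes for LWG and 6 for HWG over Con at an adjusted p under 0.05, and edgeR without 1 goose called 0 to 1 (1 without Con replicate 3) and 0 to 2 (2 without HWG replicate 3). At an unadjusted p under 0.05, leaving out 1 goose gave 688 to 1929 genes for LWG (1929 without Con replicate 3) and 405 to 1653 for HWG (405 without HWG replicate 1, 1653 without HWG replicate 3), and the difference of GATA4 and HOXA10 as a covariate gave 1132 for HWG. The cause of these differences was not tested.

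The groups share replicate numbers, but the geese are different animals. Deviations of same-numbered geese correlated from -0.282 to 0.377 (median 0.0749, 12 pairs of libraries) and those of others from -0.287 to 0.297 (median -0.0022, 36 pairs). These ranges overlapped, and whether same-numbered geese shared a batch or an order of collection was not tested. With the replicate block, the log2 fold change of LWG over Con was 1.37 for SLC6A4 and 1.78 for TMIGD1, that of HWG over Con -0.38 and -0.59, and r of the pair within groups 0.260. The block left 0 genes called in both comparisons, and 1162 and 726 at an unadjusted p under 0.05.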
